A study of Homo sapiens with 3 samples.

Results

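KYSE180 cells, a human oesophageal squamous cell carcinoma line, transfected with a HOTAIR vector were compared with control cells across all genes of an oligonucleotide array. The comparison used 2 of the 3 arrays of the series, 1 per group, and its members were the 10917 genes, of 18132 measured, with a mean log2 signal over the 3 arrays of 5.28 or more, the median of the probe set means (the filter below). Each gene was represented by its brightest probe set that carries a single gene symbol. The vector cells received LZRS_HOTAIR with the reagent Polyfect, and RNA was taken 48 h later. The control cells are labelled only as control, and a reagent or sham treatment is not given for them in the sources used here. The third array, of cells given a mixture of siRNAs against HOTAIR (100 pmol, Lipofectamine2000, 48 h), is quoted beside the genes because the control array stood apart from both transfected arrays. Cells given a vector without HOTAIR were not analysed here, so effects of the RNA, of the vector DNA and of the reagent cannot be told apart. With 1 array per group no test was possible, no value has a replicate check, and this number of arrays sets how precise any difference can be.

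HOTAIR is a long non-coding RNA transcribed from the HOXC gene cluster and is best known for binding the repressive chromatin complex PRC2. In squamous carcinoma cells the genes most often followed beside it are those of invasion, of the Wnt pathway and of epithelial identity. Nucleic acid that enters the cytosol is detected by sensors such as RIG-I, which switch on interferons. Secreted interferons then induce a large set of antiviral genes through a transcription factor that binds the interferon-stimulated response element (ISRE).

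A run of 3 numbers after a gene gives its log2 signals on the control, vector and siRNA arrays, and a single signed number is the log2 difference of vector minus control unless said otherwise. The probe set table named 0 probe sets for HOTAIR, so the transfected RNA itself could not be followed. HOXC11 had log2 signals of 5.71 on the control, 5.01 on the vector and 5.42 on the siRNA array, and HOXC12 had 3.69, 3.40 and 3.51, below the filter on every array. The 2 genes beside HOTAIR thus differed by -0.70 and -0.29. The labelled cell type was checked against lists of markers. All 10 measured markers of squamous epithelium lay above the filter (7.30 to 13.38 in control and 6.62 to 12.75 in vector cells), and of 10 glandular, 10 fibroblast, 9 leukocyte and 8 endothelial markers 1 each did (CDX2, ACTA2, CD68 and ESAM).

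Among the 10917 genes 1662 (15.2%) exceeded control by 2-fold or more in the vector cells and 224 (2.05%) were below it by as much. Together 17.3% passed 2-fold, and 88.1% of these were higher. The siRNA array differed from the same control array to a like extent, with 14.9% of genes higher and 1.85% lower (16.7% in all). Between the transfected arrays 1.73% were higher on the vector array and 1.85% lower (3.58% in all). Beyond 4-fold the imbalance was larger, with 572 genes higher and 16 lower, and beyond 16-fold 18 were higher and 3 lower. At 1.5-fold it nearly disappeared, with 2499 genes higher and 2117 lower (54.1% higher). Most genes differed little. The middle 50 percent of all differences lay between -0.51 and 0.49 (log2), around a median of -0.18, which cyclic loess moved to -0.04 and repeated quantile normalization to -0.29. Of the 1662 higher genes 303 had a control signal below the filter, and of the 224 lower genes 34 had a vector signal below it, so for these the size of the difference is uncertain. In 5 equal groups of genes by signal, the share of higher genes was 11.8% in the dimmest, 20% in the middle and 9.39% in the brightest group. The share of lower genes was 2.24%, 2.52% and 0.778% in the same groups. Repeating the quantile normalization left 1444 genes higher and 518 lower, which brought the share of higher genes to 73.6%.

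**Figure D1:**
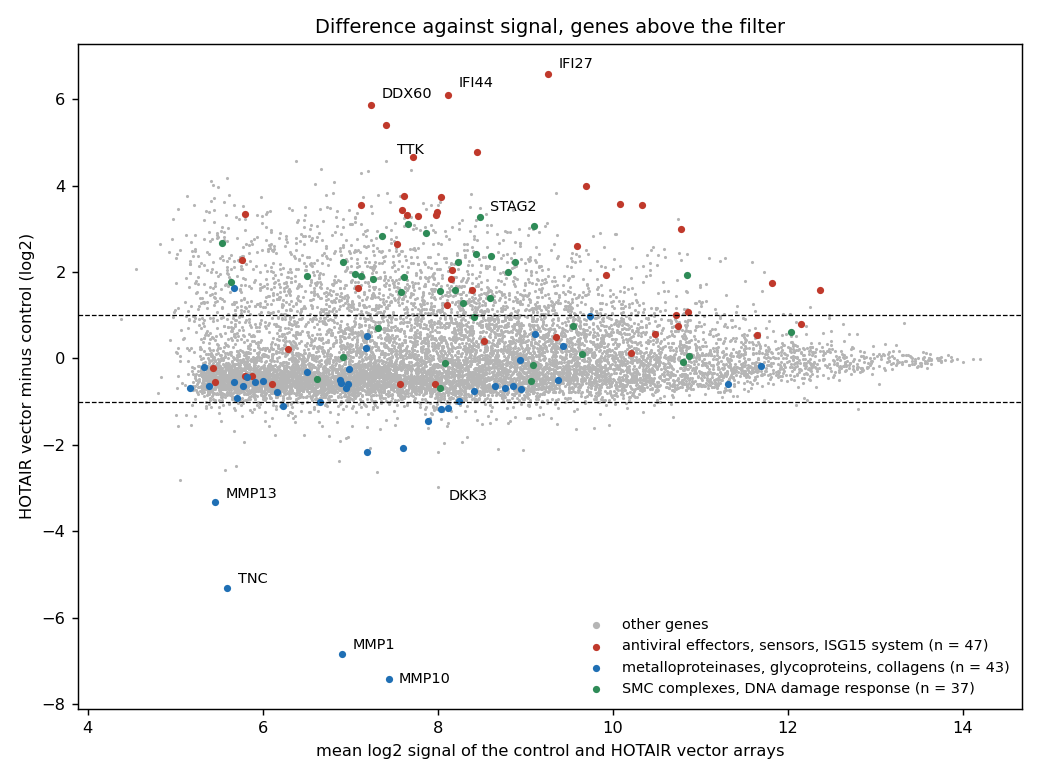
Log2 difference, HOTAIR vector minus control (vertical axis), against the mean log2 signal of both arrays (horizontal axis) for 10917 genes, 1 point per gene and 1 array per group, with dashed lines at 2-fold. Antiviral genes (red) reach 6.58 at IFI27, matrix genes (blue) reach -7.41 at MMP10, and genes of chromosome structure and DNA repair (green) reach 3.26 at STAG2.

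Antiviral effector genes, which act directly against viral RNA and proteins, held the largest single differences above control. In this list 23 of the 30 members above the filter were past 2-fold, all above control (15.2% of all genes were), and the median difference was 2.17, against -0.18 for all genes. Of the 23 genes 5 had a control signal below the filter, and over all 37 measured members 27 were past 2-fold upwards. IFI27, an interferon-induced mitochondrial and nuclear envelope protein, had log2 signals of 5.97 on the control, 12.55 on the vector and 5.62 on the siRNA array, a 95.5-fold difference between vector and control. IFIT3, which binds the antiviral RNA sensor IFIT1, had 6.06, 10.83 and 6.55 (27.3-fold). MX1, a dynamin-like GTPase that traps viral ribonucleoproteins, had 8.29, 11.87 and 8.17 (11.9-fold). In these 3 genes the control and siRNA signals were alike and the vector signal alone was high. In RNA of whole cultures, more responding cells and more RNA per cell cannot be told apart. Another pattern was seen for IFI44, an interferon-induced cytoplasmic protein, with 5.07, 11.16 and 7.58, and for the RNA helicase-like gene DDX60, with 4.31, 10.18 and 6.10. Here the siRNA array lay between the others. The 6 probe sets of IFI44 differed by 1.0 to 6.70, and both of IFI27 by 5.27 to 6.58. SAMD9, a cytoplasmic restriction factor for poxviruses, had the same order (4.71, 10.12 and 7.60). The remaining members past 2-fold ran from TNFSF10 at 1.01 to IFI6 at 4.0. Set against the same control array, 6 of the 30 were past 2-fold on the siRNA array (14.9% of all genes), with a median of 0.21.

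The promoters of these genes are shown because the ISRE is the element best known from promoters of such genes. The stretches below come from RefSeq promoters (build GRCh38.p14, 250 bases before to 50 after the gene's start), read 5′ to 3′ on the strand of the gene, with capitals marking the match nearest to the start to an ISRE-like motif, GAAA, any 2 bases and GAAA again, on either strand.
IFI27: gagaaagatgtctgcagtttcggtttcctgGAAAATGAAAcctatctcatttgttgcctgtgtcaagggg
IFI44: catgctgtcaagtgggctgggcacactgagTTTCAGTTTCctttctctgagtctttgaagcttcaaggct
DDX60: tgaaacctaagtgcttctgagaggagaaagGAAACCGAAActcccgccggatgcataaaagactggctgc
IFIT3: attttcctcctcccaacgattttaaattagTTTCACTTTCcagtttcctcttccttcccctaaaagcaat
MX1: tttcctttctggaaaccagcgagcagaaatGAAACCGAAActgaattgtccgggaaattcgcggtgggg
ISG15: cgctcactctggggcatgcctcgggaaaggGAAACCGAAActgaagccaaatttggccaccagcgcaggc
These lie at chr14:94110611-94110680 (plus strand) for IFI27, chr1:78649741-78649810 (plus) for IFI44 and chr4:168318766-168318835 (minus) for DDX60. IFIT3 lies at chr10:89327845-89327914 (plus), MX1 at chr21:41420539-41420607 (plus) and ISG15 at chr1:1013360-1013429 (plus). The capitals begin 95 bases before the start in IFI27, 18 in IFI44, 53 in DDX60, 122 in IFIT3 and 107 in ISG15, and 11 bases after it in MX1. DDX60, MX1 and ISG15 share the same letters, GAAACCGAAA.

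Both strands of 35116 promoters were searched for this motif, and 3.57% held it. A promoter was found for 9065 of the genes above the filter, of which 2.59% held a match. Over 7 interferon lists (effectors, sensors, signalling, ISG15, PARPs, antigen processing and guanylate-binding proteins) 23 of 37 promoters of higher genes held a match (62.2%), and 12 of 29 promoters of members that were not 2-fold apart did (41.4%). Among all higher genes the share was 4.25%, among genes 2-fold apart in neither direction 2.32%, and among lower genes 0.599% (1 of 167). A match is a description of the letters in this window and not a measured binding site. Of the higher genes with an ISRE-like match 36 were in no gene list used here, and the largest differences among them were SPARCL1 (2.95), FAM171B (2.83), SAMTOR (2.74), SGO2 (2.61), FERRY3 (2.39) and ZBTB33 (2.37). On the siRNA array these 6 differed from control by 1.57, 2.85, 2.45, 0.70, 2.23 and 2.23.

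Upstream of the effectors, 6 of 12 nucleic acid sensors and adaptors were past 2-fold, all above control (50%, against 15.2% of all genes). Their median was 1.20, but 0.37 with the mean over probe sets and 0.33 with no filter. RIGI, the sensor of RNA with a 5′ triphosphate, had log2 signals of 5.39 on the control, 10.05 on the vector and 7.20 on the siRNA array, and its 3 probe sets differed by 3.99 to 4.66. IFIH1, which encodes the sensor of long double-stranded RNA MDA5, had 6.12, 9.42 and 7.38. DHX58, the regulator LGP2 of both, had 7.23, 9.07 and 6.85. The DNA sensor IFI16 stood at 8.29, 10.89 and 9.34. The vector array was the highest of the 3 for all 4, but the siRNA array was also above control for RIGI, IFIH1 and IFI16. TBK1, the kinase that carries the signal of the sensors to IRF3, was high on both transfected arrays (5.88, 9.31 and 9.19). EIF2AK2, the kinase PKR, which stops translation on binding double-stranded RNA, was higher by 1.92. The mean over the 4 probe sets of DHX58 was 0.92, below 2-fold.

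Between the sensors and the effectors lie receptors, kinases and transcription factors. Of 8 interferon signalling genes and transcription factors above the filter 1 was 2-fold higher (12.5%, near the 15.2% of all genes), IRF9, the DNA-binding part of the factor that recognises the ISRE, with 8.85, 10.56 and 8.38. Its 4 probe sets differed by 1.59 to 1.86. SOCS1, a feedback inhibitor of JAK kinases below the filter, was 2-fold lower on both transfected arrays (5.67, 4.65 and 4.61), but its difference was under 2-fold in 4 of the alternative settings. Among receptors and ligands IFNGR1, a chain of the interferon gamma receptor, was higher by 1.03 (0.90 after repeated quantile normalization). The interferon genes themselves stayed below the filter. All 5 measured ligand genes (IFNB1, IFNA2, IFNE, IFNK and IFNL1) had vector signals of only 2.35 to 3.83, and the largest difference was 0.44 for IFNE. IFNB1 had signals of 3.35, 3.27 and 3.21. These 5, and the gene neighbourhoods given further on, were chosen after their values were seen.

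The ubiquitin-like system of ISG15, which tags proteins during infection, had 3 of 5 members past 2-fold, all above control (15.2% of all genes were). The median was 2.99. ISG15 itself had log2 signals of 9.28 on the control, 12.27 on the vector and 8.30 on the siRNA array, so its siRNA signal was the lowest of the 3. The ligase HERC5 had 6.32, 9.63 and 7.0, and HERC6 had 6.29, 9.69 and 6.46. HERC5 and HERC6 are neighbours on chromosome 4. Of 6 interferon-linked PARP genes 4 were higher (66.7%, against 15.2% of all genes). Among them were PARP9 (2.87) and its ligase partner DTX3L (2.30), which stood at 0.55 and 0.64 for siRNA minus control. PARP14, a mono-ADP-ribosyltransferase, was higher in both transfected arrays, by 2.13 and 1.66.

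Genes that load peptides on MHC class I were only partly different. Here 3 of 18 were past 2-fold, all above control (16.7%, near the 15.2% of all genes), and the median was 0.59. The 3 were ERAP2, a peptide-trimming enzyme (5.60, 8.04 and 7.69), NLRC5, a transcriptional activator of the class I genes (5.54, 7.09 and 5.76), and HLA-B (9.81, 10.88 and 9.67). Neither NLRC5 nor HLA-B kept its size across probe sets, since without probe sets that may be shared between transcripts they were at -0.19 and 0.095. All 3 guanylate-binding protein genes above the filter were higher (15.2% of all genes were), GBP1 by 1.62, GBP2 by 1.65 and GBP6 by 1.26. Over all 7 measured members 4 were past 2-fold upwards. GBP5, below the filter, had 3.23, 6.75 and 3.28. Genes typical of interferon gamma (chemokines of the CXCL9 group, IDO1 and others) had 2 members above the filter and none 2-fold apart, with WARS1 at 0.64. Targets of NF-kappaB, the other factor switched on by the sensors, were past 2-fold in both directions, with 1 of 7 higher (14.3%, near the 15.2% of all genes). This was NFKBIZ (1.38), whose control signal was below the filter and which was higher by 1.27 on the siRNA array. The 2 lower genes (2.05% of all genes were lower) were the neutrophil chemokine gene CXCL1 (8.22, 6.85 and 8.45) and RELB (-1.07). Over all 19 measured targets 4 were past 2-fold above control and 2 below it. RELB was at -0.78 after cyclic loess and CXCL1 at -0.75 without shared probe sets.

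**Figure D2:**
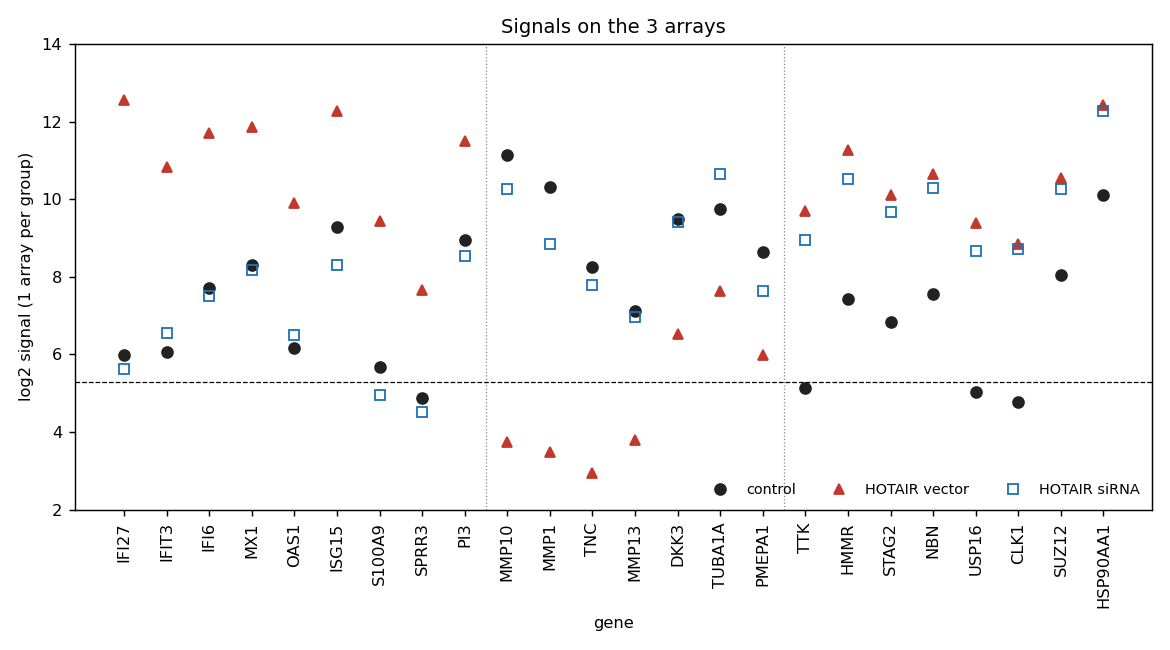
Log2 signals (vertical axis) of 24 genes (horizontal axis) on the control (black circles), HOTAIR vector (red triangles) and HOTAIR siRNA arrays (blue squares), 1 array per group, with the filter as a dashed line. In the left block vector signals stand above both others (IFI27 at 12.55 against 5.97 and 5.62), in the middle block below both (TNC at 2.95 against 8.25 and 7.79), and in the right block both transfected arrays stand above control (SUZ12 at 10.55 and 10.26 against 8.05).

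Late squamous differentiation genes divided into a few with large differences and a majority near control. Among 18 such genes 5 were past 2-fold, all above control (27.8%, against 15.2% of all genes), and the median was -0.05, with the opposite sign under cyclic loess, under centring and without shared probe sets. SPRR3, SPRR1B and SCEL had a control signal below the filter and passed it through other arrays, and with a filter at the 75th percentile 0 of the list were past 2-fold. S100A9, a subunit of the calcium-binding protein calprotectin, had log2 signals of 5.68 on the control, 9.44 on the vector and 4.95 on the siRNA array, and its partner S100A8 had 6.27, 7.50 and 6.26. The small proline-rich cornified envelope genes SPRR3 (4.88, 7.65 and 4.53) and SPRR1B (5.07, 7.55 and 4.85) showed the same order, with vector above control and control above siRNA. PI3, which is in no list and encodes elafin, an elastase inhibitor crosslinked into the envelope, stood at 8.94, 11.50 and 8.54. SPRR3, SPRR1B, S100A9 and S100A8 follow each other among the genes above the filter in the epidermal differentiation complex of chromosome 1. SCEL, the precursor of the envelope protein sciellin, differed in that the siRNA array was also high (4.09, 8.67 and 6.31). Of 7 keratins above the filter 0 were 2-fold higher (15.2% of all genes were) and 1 was lower (2.05% of all genes). The lower one was the basal keratin KRT14, which had 13.38, 12.22 and 13.01 and was at -0.98 after centring. Desmosome and adherens junction genes had 1 of 14 higher (7.14%, under the 15.2% of all genes), DSC2 (1.17). Tight junction genes had 3 of 10 higher (30%), PARD6B (2.32), CXADR (1.55) and OCLN (1.10). PARD6B had a control signal of 3.85, below the filter, and its 2 probe sets differed by 0.40 to 2.32. Without shared probe sets DSC2 was just under 2-fold and 1 tight junction gene was past it, and OCLN was at 0.90 after repeated quantile normalization.

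Genes of matrix breakdown held the largest differences below control. Among 11 matrix metalloproteinases 4 were past 2-fold, all below control (2.05% of all genes were), 0 of the 11 had a difference above 0, and the median was -0.77 (-0.49 after cyclic loess). The stromelysin MMP10, which cleaves proteoglycans and activates collagenases, had log2 signals of 11.14 on the control, 3.74 on the vector and 10.27 on the siRNA array. The interstitial collagenase MMP1 had 10.32, 3.49 and 8.85. MMP13, a collagenase with wider substrates, had 7.12, 3.79 and 6.97. In these 3 genes the vector signal lay near the lower quartile of its array (3.58), while control and siRNA signals were above the filter. They follow each other among the genes above the filter in the metalloproteinase cluster on chromosome 11, an order that skips genes below the filter. With no filter the number of metalloproteinases past 2-fold below control was 4 as well. MMP2, a gelatinase coded elsewhere, had 8.27, 6.12 and 8.26, and its 4 probe sets differed by -2.46 to -0.41. Probe sets also disagreed for MMP13 (-3.33 to -0.35 over 5), while both probe sets of MMP1 were far lower (-6.83 to -5.41). Protease inhibitors and plasminogen activation genes had 1 of 11 lower, SERPINE2 (-1.07, or -0.89 after centring), and 0 higher. Of all genes 2.05% were lower and 15.2% higher.

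Structural matrix genes were lower in smaller numbers. Among 14 glycoproteins and proteoglycans 4 were past 2-fold below control (2.05% of all genes were) and 1 above it (7.14%, under the 15.2% of all genes). TNC, the adhesion-modulating glycoprotein tenascin C, had log2 signals of 8.25 on the control, 2.95 on the vector and 7.79 on the siRNA array, but its 4 probe sets differed by -5.30 to -0.33. NID1, which links laminin to collagen IV in basement membranes, had 8.64, 6.57 and 9.37. CCN1, a matricellular protein, was at -1.17 (-0.99 after centring), and LTBP1, which tethers latent TGF-beta, at -1.09 (-0.88 after cyclic loess). The bone and matrix cytokine SPP1 was the exception, higher by 1.62 (0.51 without shared probe sets). Collagens and their enzymes had 3 of 18 members past 2-fold, all below control (2.05% of all genes were). These were COL4A2 (8.61, 7.17 and 8.45), COL4A1 (8.69, 7.55 and 9.05) and COL5A1 (7.16, 6.15 and 8.04). COL4A1 and COL4A2 are transcribed from a shared promoter and encode the chains of basement membrane collagen. The number of lower collagen genes was 1 after centring, 1 when probe sets were averaged, 1 when shared probe sets were left out and 2 after cyclic loess. The siRNA array differed from control by -0.47 to 0.88 for the 4 lower glycoproteins and 3 lower collagens. Against the siRNA array 5 of the 18 collagen genes were past 2-fold lower on the vector array (1.85% of all genes). Integrins and laminins had 2 of 12 higher (16.7%, near the 15.2% of all genes), ITGB8 (2.18) and ITGAV (1.53), and 1 lower, ITGA3 (-1.07). On the siRNA array 5 of 12 were past 2-fold above control (14.9% of all genes were), with ITGB8 at 1.79 and ITGAV at 2.20. ITGA3 was at -0.93 after cyclic loess, -0.84 when probe sets were averaged and -0.89 after centring. ITGAV was at -0.06 without shared probe sets.

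**Figure D3:**
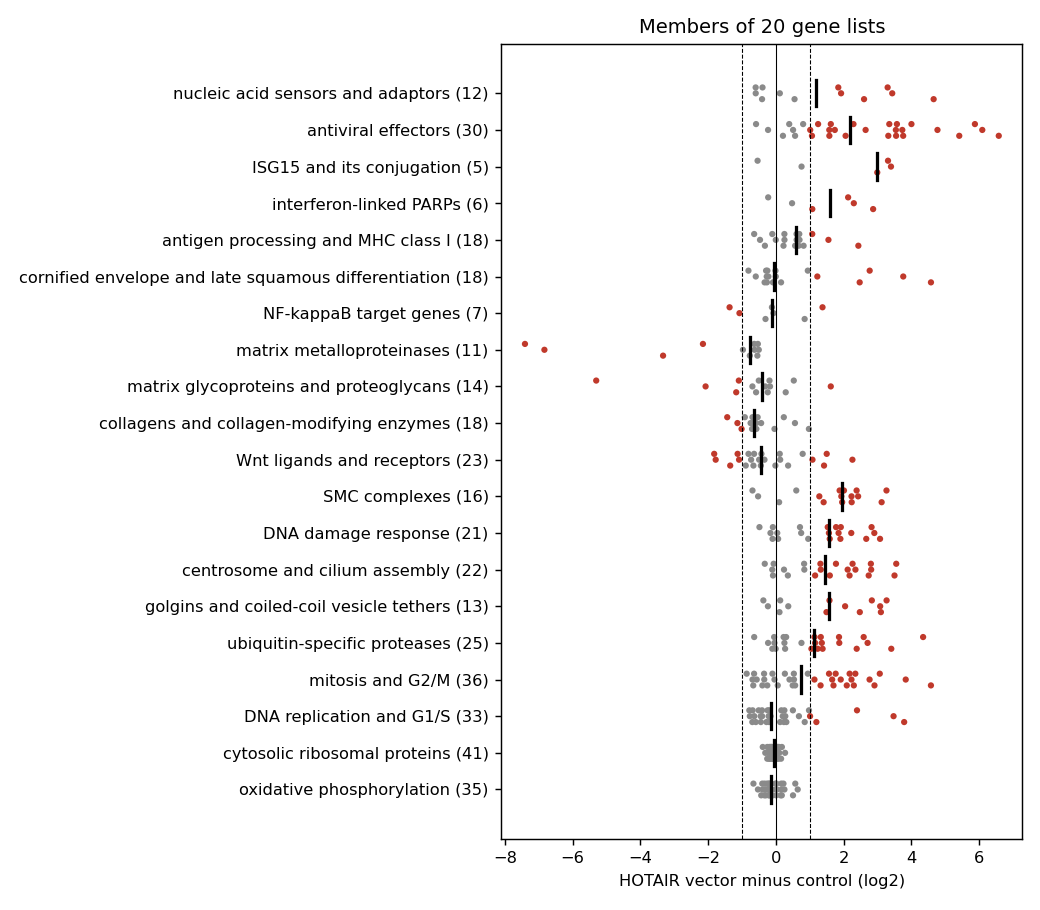
Log2 differences, HOTAIR vector minus control (horizontal axis), of the members above the filter in 20 gene lists (rows, number of members in brackets), with 1 point per gene, red at or beyond 2-fold, and a black bar at the list median. Antiviral effectors spread up to 6.58, metalloproteinases down to -7.41, and ribosomal protein genes stay within 0.39 of 0.

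The 15 genes with the lowest differences held other secreted and signalling genes beside the matrix genes. DKK3, a secreted glycoprotein of the Dickkopf family, had log2 signals of 9.48 on the control, 6.52 on the vector and 9.42 on the siRNA array, and its 6 probe sets differed by -2.97 to -0.19. PMEPA1, a feedback inhibitor of TGF-beta signalling, had 8.63, 5.99 and 7.63, and all 3 of its probe sets were lower (-3.14 to -2.63). CXCL14, an epithelial chemokine, had 6.46, 3.65 and 7.28. The transcription factor MAF stood at 8.27, 6.19 and 8.12, the focal adhesion scaffold NEDD9 at 10.03, 7.92 and 9.93, and the tubulin gene TUBA1A at 9.74, 7.64 and 10.65. Also among the 15 were DACH1 (-2.48), SDK2 (-2.59), LYPD1 (-2.38) and MRC2 (-2.17, or -0.95 with the mean over probe sets). Probe sets disagreed for MAF (-2.71 to 0.04), NEDD9 (-2.33 to -0.32) and CXCL14 (-2.81 to -0.21). They also did for SDK2 (-2.59 to -0.51) and LYPD1 (-2.38 to -0.96), while those of TUBA1A (-2.13 to -2.10) and DACH1 (-2.48 to -2.26) were alike. On the siRNA array LYPD1 and PMEPA1 were also below control (-1.96 and -0.99), while the other genes of this paragraph up to here stood above control or close to it, with MAF the furthest below (-0.15). Genes whose siRNA signal was within 1.5-fold of control and whose vector signal was low also included CCDC3 (-1.95), PROC (-1.93), RFLNB (-1.90), IRS1 (-1.85), an adaptor of the insulin receptor, and the ligand gene WNT11 (-1.82).

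Wnt pathway genes were past 2-fold in both directions. Among 23 ligands and receptors 4 were past 2-fold above control (17.4%, near the 15.2% of all genes). Below control by as much were 5 of the 23, against 2.05% of all genes. The ligands WNT11 (7.88, 6.06 and 7.64) and WNT10A (7.03, 5.25 and 6.63) were lower on the vector array alone. FZD1, a receptor among the brightest 10 percent of genes, had 11.36, 10.01 and 11.61. FZD6, a receptor of planar polarity signalling, was instead high on both transfected arrays (8.40, 10.66 and 10.73). DKK1, an inhibitor that binds LRP6, was higher by 1.12 (0.95 after repeated quantile normalization). APCDD1, a membrane inhibitor below the filter, had 5.38, 3.86 and 5.56, a difference of -1.52 that was -0.90 when probe sets were averaged and -0.28 without shared probe sets. The genes of TGF-beta signalling had 5 of 17 members higher (29.4%, against 15.2% of all genes) and 0 lower, led by SMAD5 (2.55) and the receptor gene BMPR2 (2.0). On the siRNA array 5 of 17 were past 2-fold as well, where SMAD5 was at 2.53 and BMPR2 at 2.07. Below the filter the ligand gene TGFB1 was lower (5.90, 4.59 and 5.22).

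A second large group of genes above control was also high on the siRNA array. With 1 control array, a difference shared by both transfected arrays cannot be told apart from a deviation of the control array itself. Subunits of the SMC complexes fold, pair and repair chromosomes. Of 16 members 12 were past 2-fold, all above control (75%, against 15.2% of all genes), with a median of 1.94. STAG2, a cohesin subunit, had log2 signals of 6.85 on the control, 10.11 on the vector and 9.68 on the siRNA array, and its 4 probe sets differed by 3.26 to 3.64. SMC6, of the repair complex SMC5/6, had 6.10, 9.22 and 8.46. SMC2, of condensin, had 7.22, 9.65 and 9.38, and all 7 of its probe sets differed by 2.42 to 2.82. In each the siRNA signal was closer to the vector than to the control signal. Against the shared control array 12 of 16 were also 2-fold higher on the siRNA array (14.9% of all genes), with a median of 1.60. Between the transfected arrays 0 of 16 were 2-fold apart (3.58% of all genes). Genes of the DNA damage response had 12 of 21 members past 2-fold, all above control (57.1%, against 15.2% of all genes). Of these 12 genes 2 had a control signal below the filter. The median was 1.57, and with the mean over probe sets 8 of the list were past 2-fold. On the siRNA array 12 of 21 were higher (14.9% of all genes), with a median of 1.45. NBN, of the break sensor MRN, had 7.57, 10.64 and 10.30, and its partner RAD50 had 5.80, 8.03 and 7.62. The checkpoint kinase genes ATM (2.67) and ATR (1.92) were among them, but the 5 probe sets of ATM differed by -0.08 to 2.67.

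Centrosome and cilium genes had 14 of 22 members past 2-fold, all above control (63.6%, against 15.2% of all genes), with a median of 1.46. On the siRNA array 13 of 22 were higher (14.9% of all genes). IFT80, a carrier of intraflagellar transport, had log2 signals of 4.99 on the control, 8.49 on the vector and 8.59 on the siRNA array, and CCP110, a cap of the mother centriole, had 5.30, 8.04 and 7.97. IFT74 (3.89, 7.44 and 5.95) and CEP290 (4.08, 6.89 and 5.38), a protein of the ciliary gate, were higher on the vector than on the siRNA array as well. The 4 probe sets of CEP290 differed by -0.19 to 2.81 (mean 0.94) and the 3 of IFT74 by 0.38 to 3.55. Of the 14 higher genes 5 had a control signal below the filter, and with the mean over probe sets 7 of the list were past 2-fold. Golgins and other coiled-coil tethers had 8 of 13 past 2-fold, all above control (61.5%, against 15.2% of all genes), with a median of 1.58. Of these 8 genes 4 had a control signal below the filter and passed it through the transfected arrays. The number and median were 5 and 0.78 when probe sets were averaged, and 3 and 0.25 with a filter at the 75th percentile. On the vector array 4 of the 13 were 2-fold above the siRNA array too (1.73% of all genes). EEA1, an early endosome tether, had 5.20, 8.47 and 6.84, and the autophagy scaffold RB1CC1 had 7.02, 10.10 and 9.13.

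Many regulators of protein and RNA turnover were high on both transfected arrays. Ubiquitin-specific proteases had 14 of 25 members past 2-fold, all above control (56%, against 15.2% of all genes). Of these 14 genes 3 had a control signal below the filter and passed it through the transfected arrays. With the mean over probe sets 8 of the list were past 2-fold. On the siRNA array 13 of 25 were higher (14.9% of all genes). USP16, a histone H2A deubiquitinase, had log2 signals of 5.03 on the control, 9.37 on the vector and 8.67 on the siRNA array, and USP1, which acts on FANCD2 and PCNA, had 9.16, 11.75 and 11.61. USP15 was represented by a probe set at 3.41, but its 7 probe sets differed by -0.38 to 3.41. C2H2 zinc finger genes, most with a repressive KRAB domain, had 17 of 26 past 2-fold, all above control (65.4%, against 15.2% of all genes). The median was 1.61, against 1.57 for siRNA minus control. Of these 17 genes 10 had a control signal below the filter and passed it through the transfected arrays, so the count and median over the 26 are descriptions. Over all 48 measured members 23 were past 2-fold and the median was 0.90, and with a filter at the 75th percentile 5 were past 2-fold. ZNF267 had 4.42, 7.56 and 6.16 and ZNF644 had 5.64, 9.26 and 7.97. RNA helicases and decay factors had 9 of 26 higher (34.6%, against 15.2% of all genes) and 0 lower. Among them were the decapping enzyme DCP2 (2.64), the exonuclease XRN1 (2.42) and DHX29 (2.52), a helicase of translation initiation. Splicing kinases and SR-related genes had 7 of 27 higher (25.9%), led by CLK1, the kinase of SR proteins (4.77, 8.85 and 8.72), and LUC7L3 (2.13). Of 25 hnRNP and core spliceosome genes 1 was past 2-fold (4.0%, under the share of all genes), SF3B1 (1.02, or 0.99 after repeated quantile normalization).

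Cell cycle genes were counted by phase. Genes of mitosis and G2/M had 17 of 36 members past 2-fold, all above control (47.2%, against 15.2% of all genes). The median was 0.76. HMMR, a spindle protein and hyaluronan receptor, had log2 signals of 7.44 on the control, 11.27 on the vector and 10.52 on the siRNA array, and its 4 probe sets differed by 3.77 to 4.25. NUF2, of the outer kinetochore, had 6.08, 9.15 and 9.08, and CDK1, the mitotic kinase, had 8.40, 11.31 and 11.25. The 3 probe sets of CDK1 differed by 0.42 to 2.91. Of 33 genes of DNA replication and G1/S 5 were higher (15.2% of this list and of all genes alike) and 0 lower, with a median of -0.16. These were ORC3 (3.79), CCNE2 (3.47), ORC4 (2.39), ORC5 (1.20) and PRIM1 (1.01), so 3 subunits of the origin recognition complex were among them. ORC3 and CCNE2 had a control signal below the filter (4.83 and 5.03), and the 7 probe sets of ORC3 differed by 0.25 to 4.44. ORC5 and PRIM1 missed 2-fold after repeated quantile normalization (0.99 and 0.83). On the siRNA array 16 of the 36 and 5 of the 33 were higher (14.9% of all genes). Of 18 p53 target genes 6 were higher (33.3%, against 15.2% of all genes) and 0 lower. The stress cytokine gene GDF15 was high in vector cells alone (6.15, 7.47 and 5.38), although its 5 probe sets differed by -0.19 to 3.27. RRM2B (2.47) and the death receptor gene FAS (2.14) were also high in siRNA cells (2.32 and 1.54). The 9 probe sets of RRM2B differed by 0.11 to 2.47, with a mean of 0.83, under 2-fold. With the mean over probe sets 2 of the 18 were past 2-fold.

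**Figure D4:**
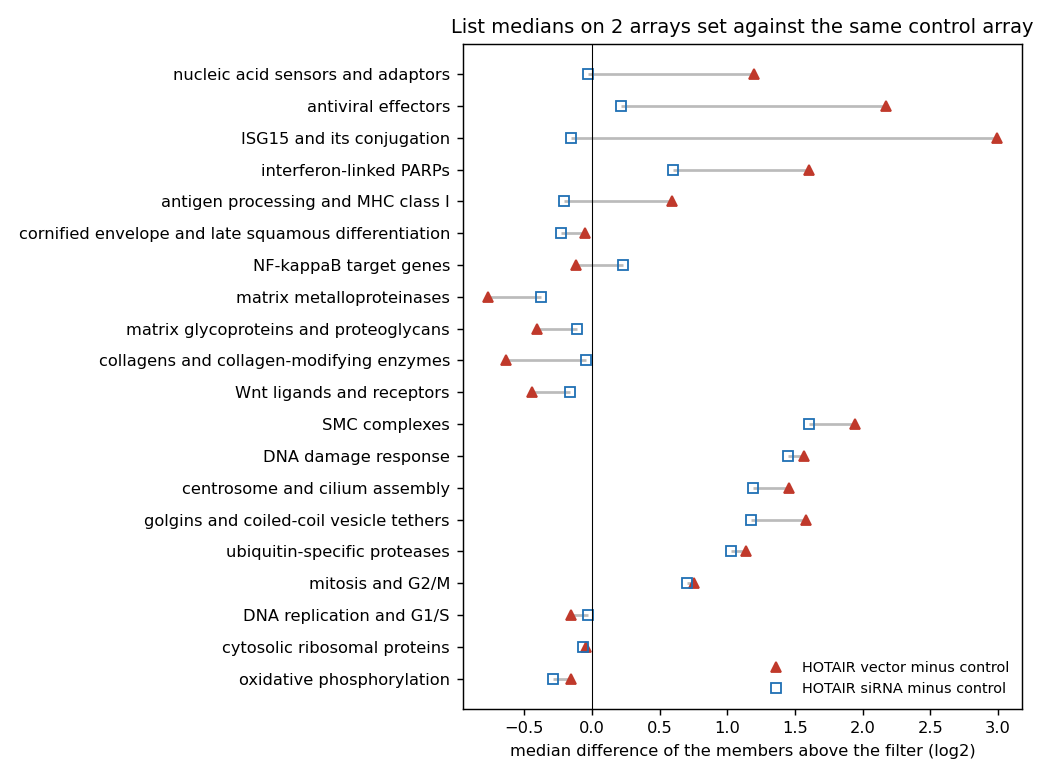
Median log2 difference (horizontal axis) of the members above the filter in 20 gene lists (rows) for HOTAIR vector minus control (red triangles) and HOTAIR siRNA minus control (blue squares), which share the control array, with grey lines joining the medians. Antiviral effectors stand at 2.17 and 0.21, SMC complexes at 1.94 and 1.60, and ribosomal protein genes at -0.05 and -0.06.

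Stress, translation and metabolic genes held a few large differences in lists that were otherwise near control. Of 20 heat shock and co-chaperone genes 6 were higher (30%, against 15.2% of all genes) and 0 lower. Among the 6 were HSP90AA1, the inducible HSP90 (10.12, 12.44 and 12.28), DNAJB4 (2.41) and HSPA13 (3.53). HSP90AA1 is also in the brightest 10 percent of genes, where 64 of 1092 were higher (5.86%) and 3 lower. In this group DEK (2.33), SEPTIN7 (2.43), TAX1BP1 (2.34) and ANXA1 (3.23) were past 2-fold, but the 5 probe sets of ANXA1 differed by -0.02 to 3.61. The 3 lower genes of this bright group were FZD1, KRT14 and the tubulin gene TUBA4A (12.63, 11.55 and 11.59). After centring KRT14 was at -0.98 and TUBA4A at -0.89, under 2-fold. Unfolded protein and integrated stress genes had 2 of 22 higher (9.09%, under the 15.2% of all genes), DNAJB9 (1.48) and DNAJC3 (1.42). Translation factors had 7 of 28 higher (25%, against 15.2% of all genes) and 1 lower. The number of higher ones was 5 when probe sets were averaged and 3 without shared probe sets. EIF3E (10.72, 12.73 and 12.85) and EIF1AX (2.20) were above control. The helicase gene EIF4A1 was below it (-1.06, or -0.65 with the mean over probe sets). Sterol synthesis genes had 5 of 17 higher (29.4%, against 15.2% of all genes) and 0 lower, including SC5D (8.17, 10.21 and 10.25) and HMGCS1 (1.47). Hypoxia and glycolysis genes had 5 of 30 higher (16.7%, near the 15.2% of all genes, and 2 of the list when probe sets were averaged) and 1 lower, the stress gene NDRG1 (10.73, 9.19 and 8.80). Apoptosis regulators had 5 of 28 higher (17.9%, near the 15.2% of all genes), with CASP1, the inflammasome protease, at 5.20, 8.10 and 8.53 and BIRC2 at 2.43. The 9 probe sets of CASP1 differed by -0.19 to 3.27.

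Neither the 41 ribosomal protein genes nor the 35 respiratory chain and ATP synthase genes included 1 past 2-fold (17.3% of all genes were). When probe sets were averaged, or shared ones left out, 1 ribosomal protein gene was 2-fold lower. The medians of both lists were -0.05 and -0.15, with the opposite sign after centring, and RPL13 (-0.39) and UQCRC1 (-0.66) were the most different. Proteasome subunits had 2 of 27 higher (7.41%, under the 15.2% of all genes), PSMC6 (2.40) and PSMA3 (1.30). The 2 probe sets of PSMC6 differed by 0.36 to 2.40. Of the tRNA synthetases 2 of 19 were higher (10.5%, also under that share), NARS1 (1.26) and RARS1 (1.10). No member of the EGF receptor, MAPK feedback or mesenchymal lists was past 2-fold, where ERBB2 (-0.60), FOSL1 (-0.83) and CDH2 (-0.76) were the most different. For these 3 lists the count was 0 under every alternative normalization, probe set choice and filter tried.

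Genes of the chromatin complexes linked to HOTAIR were mostly near control. Among 12 PRC2 genes 2 were past 2-fold, both above control (16.7%, against 15.2% of all genes). SUZ12, a core subunit, had log2 signals of 8.05 on the control, 10.55 on the vector and 10.26 on the siRNA array, and MTF2, an accessory subunit that binds DNA, had 8.12, 9.50 and 9.63 with all 9 probe sets higher (1.38 to 1.83). Both were also high on the siRNA array. Among 18 genes of PRC1 and other repressors 1 was higher (5.56%, under the 15.2% of all genes), PCGF5 (6.38, 9.47 and 8.67), whose 5 probe sets differed by 0.03 to 3.39. Of 16 HOX genes above the filter none was past 2-fold (17.3% of all genes were), and HOXD4 was the most different (7.06, 6.12 and 6.41). After repeated quantile normalization 1 HOX gene was 2-fold lower, and after cyclic loess 1 was higher.

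Several probe sets for one gene gave the only measure of spread. It comes from the same 2 arrays, so it holds no error between cultures or arrays. Over 8320 genes with 2 or more probe sets the differences of probe sets of one gene had a pooled SD of 0.44 (log2). Of the higher genes 1409 had more than 1 probe set. For 1096 of these (77.8%) all probe sets were above control, for 507 (36%) all were past 2-fold, and for 934 (66.3%) their mean was. Of the lower genes 154 had more than 1 probe set. All were below control for 148 (96.1%), all were past 2-fold for 35 (22.7%), and the mean was for 67 (43.5%). Among 5399 genes with 3 or more probe sets, 283 were 2-fold higher on all of them and 16 were 2-fold lower on all. The higher genes with the largest smallest difference were RIGI, HMMR, TMTC3, PNPLA8, STAG2, NMD3, RECQL and ZNF267, whose smallest differences ran from 3.99 to 3.04. The lower ones were PMEPA1, FHL2 (-1.89 to -1.63), AHNAK2 (-1.85 to -1.59), TENM2 (-1.62 to -1.51), FST (-1.83 to -1.34), HCFC1R1 (-1.38 to -1.28), EPDR1 (-1.67 to -1.15) and EGFL7 (-1.37 to -1.14). FST encodes follistatin, which binds activins. Genes represented by a probe set ending in _s_at, which can be shared by transcripts, were higher in 22.4% of cases, against 16.9% for those ending in _at, 12.8% for _a_at and 9.67% for _x_at.

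**Figure D5:**
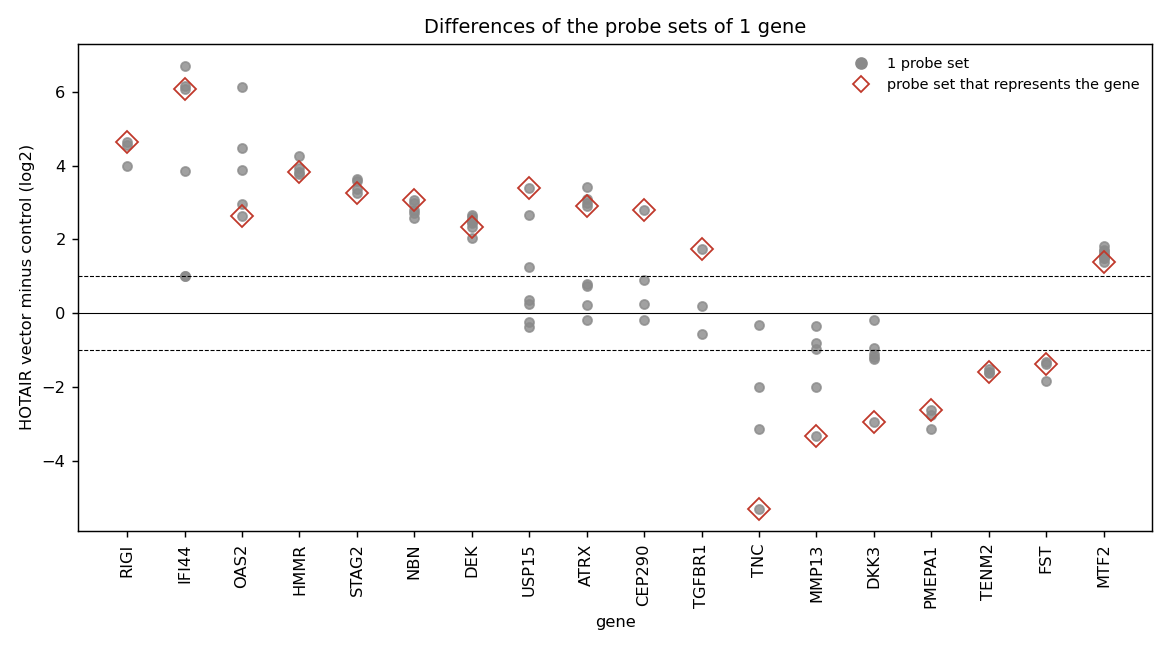
Log2 differences, HOTAIR vector minus control (vertical axis), of every probe set (grey circles) of 18 genes (horizontal axis), with a red diamond around the probe set that represents the gene and dashed lines at 2-fold. The probe sets of STAG2 lie between 3.26 and 3.64, those of USP15 between -0.38 and 3.41, and those of TNC between -5.30 and -0.33.

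The base composition of the promoters is given as a description of the groups of genes. The median GC content was 64.3% for the higher genes, 65.7% for genes 2-fold apart in neither direction and 71.7% for the lower genes, and it was 50.7% for the higher members of the interferon lists. The middle 50 percent of promoters spanned 57.3% to 70.3% for higher and 62.3% to 77.2% for lower genes, so the groups overlapped widely. The AP-1 motif TGANTCA, searched on both strands, was in 4.39% of higher, 5.99% of lower and 4.43% of the remaining promoters, and in 7.71% of all RefSeq promoters. Among the 7 lower matrix genes with a RefSeq promoter, MMP10 was the 1 that held it.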

How the data were processed

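Total RNA of KYSE180 cells was hybridised to 1 oligonucleotide array per group (control, HOTAIR vector, HOTAIR siRNA). The deposited table holds log2 signals of 49293 probe sets, made by the authors with RMA, per the submitters' processing notes. RMA as usually run forces like distributions on the arrays, but the deposited values differed in their quartiles. The lower quartile was 3.72 on the control, 3.58 on the vector and 3.62 on the siRNA array. The upper quartile was 7.35, 7.55 and 7.48 in the same order. Differences are thus relative to the scaling of the arrays as deposited.

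Probe sets with 1 symbol in the platform annotation (44988, while 1832 had several and 2473 none) were grouped by gene, and the one with the highest mean over the 3 arrays was used. Genes whose mean reached the midpoint (50th percentile) of the probe set means were kept. Differences are vector minus control, and 2-fold is the threshold. The siRNA array enters through that choice, the filter and values given beside each gene. No test can be made on single arrays. The SD between probe sets of one gene is a spread within the same 2 arrays and holds no error between cultures or arrays. The steps were tested on simulated data.

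Alternatives were repeated quantile normalization, cyclic loess (limma 3.58.1 in R 4.3.3, span 0.4, 3 cycles), the mean over probe sets, leaving out shared probe sets (names ending in _x_at or _s_at), no filter, a filter at the 75th percentile, thresholds of 1.5-fold and 4-fold, and centring on the median. Python 3.11.15, numpy 2.4.6 and pandas 2.3.3 were used.

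Genes to name were selected by rule, and not all of those selected are described here. They are the 15 largest differences in each direction and up to 6 members past 2-fold in each list and direction (or the most different one). List members below the filter were also selected if their vector or control signal was above it and their difference past 2-fold. Added to these are the 12 largest in each direction with a siRNA signal within 1.5-fold of control, 8 in each direction past 2-fold on all of 3 or more probe sets, 8 in each direction among the brightest 10 percent, 6 with an ISRE-like motif in no list, and HOXC11 and HOXC12. The members, the 57 gene lists and the motifs were chosen with earlier results of these data known. Promoter sequences are from RefSeq (GRCh38.p14), matched by gene ID or symbol. Protein lengths were not analysed here.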

Additional observations from a re-analysis of the deposited data

How the results depend on the processing

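The number of higher genes (1662) lay between 1151 and 1978 under repeated quantile normalization, cyclic loess, the mean over probe sets, omission of shared probe sets, no filter and centring. The number of lower genes (224) was less stable, with 518 after repeated quantile normalization, 129 after cyclic loess, 143 with the mean over probe sets and 105 after centring. The cause was not tested. A filter at the 75th percentile, which tests fewer genes, left 1021 higher and 113 lower. A 1.5-fold threshold gave 2499 higher and 2117 lower, and a 4-fold threshold 572 and 16. With the siRNA array in place of the control, an alternative chosen after seeing the data, 189 genes were higher and 202 lower. Without shared probe sets 5 named genes had the opposite sign, ATRX (-0.18), INSIG1 (-0.020), ITGAV (-0.064), NLRC5 (-0.19) and TGFBR1 (-0.58). The cause was not tested. The naming rule selected 248 genes past 2-fold, not all of them described here. Of these 193 stayed past it under every alternative in which they had a value, and 55 did not, 31 of them with the mean over probe sets. Signals near the lower quartile of an array limit how far a difference can be measured. No paired analysis was possible because each group had 1 array.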

Other observations

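Several members of the gene lists lay below the filter, because 2 of the 3 arrays gave them little signal, but stood out on the vector array. The order of the values is control, vector, siRNA. RSAD2, which encodes viperin, an enzyme that makes a chain-terminating nucleotide against viruses, had log2 signals of 2.73, 8.54 and 3.24. IFI44L had 4.20, 7.76 and 3.68, the apoptosis-linked interferon gene XAF1 had 3.83, 6.63 and 3.93, and GBP5 had 3.23, 6.75 and 3.28. For these 4 the control and siRNA signals lay below the filter and the vector signal above it, so their size is uncertain. TLR3, the endosomal sensor of double-stranded RNA, was in between on the siRNA array (3.10, 5.42 and 4.47). Outside the interferon lists the vector array alone stood above the filter for NT5E, the cell surface 5′-nucleotidase CD73 (3.04, 6.97 and 3.01), for the keratin gene KRT7 (4.46, 6.58 and 3.70), for the antimicrobial protein gene S100A7 (4.38, 6.54 and 4.25) and for ANKRD1 (2.83, 5.53 and 2.74), a target of YAP in many cells. TGFBI, a matrix protein induced by TGF-beta in many cells, had 4.74, 6.40 and 3.97. IL1A, an epithelial alarm cytokine, had 4.37, 6.04 and 5.22.

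Some of the 15 highest genes have not been described so far. TTK, the kinase of the spindle checkpoint and the highest member of the mitosis list, had log2 signals of 5.12, 9.70 and 8.95, and HYCC2 had 3.35, 7.47 and 6.62. SLCO1B3, an organic anion transporter best known from liver, had 4.47, 8.85 and 7.65, but its 2 probe sets differed by 0.36 to 4.38. The zinc finger gene ZBTB41 had 4.98, 9.27 and 6.82 and both its probe sets were high (3.66 to 4.29). IRAG2 had 5.52, 9.88 and 7.02, and the oxidoreductase gene PYROXD1 had 3.51, 7.69 and 5.67. In all 6 the siRNA signal lay between control and vector. Higher genes also followed each other along the genome. The longest run among genes above the filter, chosen after the values were seen, held 10 genes of chromosome 1 from ZRANB2 (2.93) to USP33 (2.38), among them ACADM (2.09) and PIGK (3.74). Another run of 8 genes held GBP1, GBP2 and GBP6 beside PKN2 (2.51), GTF2B (1.29) and LRRC8B (1.75). The longest runs of lower genes held 3 genes, and MMP10, MMP1 and MMP13 formed 1 of them.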
